A study of Mus musculus with 6 samples.

Results

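The numbered RBM family is a set of genes for RNA-binding motif proteins, named for the RNA recognition motif that most of them carry. Members were taken by symbol from the deposited count table: every gene named Rbm with a number, Rbmx, Rbmxl or Rbms, without Rbm3 and without pseudogenes. This gave 39 of the 14416 genes in the table. The samples are Lin-Thy1.2+ innate lymphoid cells (ILCs) from lungs, 3 from Rbm3 knockout mice (RBM3KO) and 3 from wild-type mice (WT), all of strain C57BL/6J. Mice of both genotypes received 25 µg of the mould Alternaria alternata 3 times within 7 days, so no unchallenged group is compared here. The sources used here do not give the part of the gene removed in the knockout, the age of the mice or any pooling of animals. RNA was read by Smart-seq2, a full-length method for small inputs that primes on the polyA tail.

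RNA recognition motifs are compact folds that hold a few bases of single-stranded RNA. RBM proteins use them in most steps of an mRNA's life, from the choice of splice sites in the spliceosome to the deposition of the exon junction complex, the methylation of adenosine (m6A), nuclear decay and the making of ribosomes. RBM3, the protein whose gene was targeted in the knockout, is a cold-inducible relative with a single such motif. In lymphocytes, RNA-binding proteins are known for setting the half-life of cytokine mRNAs and for alternative splicing of surface receptors.

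Rbm3 served as the check of the labels. It had 26.5, 22.4 and 31.6 CPM in the RBM3KO libraries, against 269.7, 313.7 and 292.6 CPM in the WT libraries (log2 fold change -3.45, SE 0.15, edgeR adjusted p = 2.23e-06). CPM, the usual unit of a count relative to its library's total, is given after TMM scaling, and log2 fold changes are RBM3KO minus WT. Totals per library lay between 7498247 and 16936670 counts in RBM3KO and between 13339633 and 25068137 counts in WT, so 1 count is worth 0.0399 to 0.133 CPM. Genes of ILCs were abundant, with Gata3 between 584 and 853.5 CPM in RBM3KO and between 598.8 and 701 CPM in WT. The 9 T cell markers summed to 206.3 to 370.6 CPM in RBM3KO and 209.2 to 311.7 CPM in WT, where sums over marker and cell cycle lists are per total count, without TMM scaling. Cd3g gave between 63.3% and 83.5% of this in a library, at 163.4 to 312.5 CPM in RBM3KO and 144.6 to 194.3 CPM in WT. Of the other 8 markers, 5 had counts in all 6 libraries, among them Cd3e (15.8 to 29.7 CPM in RBM3KO and 16.04 to 32.8 CPM in WT), and WT replicate 2 had the highest Cd3d, at 32.7 CPM. Cd8a was at 0 in 1 RBM3KO and 2 WT libraries and had 125 counts in WT replicate 2, while Cd5 was at 0 in all 3 RBM3KO libraries and 1 WT library. Cd8b1 had 0, 0 and 11 counts in RBM3KO and 6, 192 and 154 counts in WT. After TMM scaling these other 8 markers summed to 49.7 to 62.3 CPM in RBM3KO and 61.7 to 113 CPM in WT, with overlap. Of the 6 tested among them, 1 (Cd4) had an estimate above 0 and 5 below. The labels do not say that replicates are separate animals, so p-values speak only of the spread seen here, and that spread can be technical.

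Of the 26 cell cycle genes 15 fell (edgeR adjusted p under 0.05), and together they summed to 2384 to 2563 CPM in RBM3KO and 3921 to 4774 CPM in WT. Sums over the U2 snRNP, Prp19, exosome and rRNA processing lists below, per total count, did not overlap and were lower in RBM3KO. Those over the other lists of partner genes overlapped. Sums over 3 marker lists did not overlap between genotypes, and none of these sums was tested. Gene by gene, 0 of these markers passed edgeR's test, with 2 B and plasma cell and 2 macrophage list markers lower and 9 ILC markers higher at an unadjusted p under 0.05, while DESeq2 called 2, 2 and 6 of them in that order. The sum over 7 of 12 listed B and plasma cell markers was 39.2 to 42.6 CPM in RBM3KO and 65.1 to 90.7 CPM in WT. Cd79b, the highest of them, had 28.1 to 38.7 CPM in RBM3KO and 34.2 to 52.7 CPM in WT, with overlap. The 2 B and plasma cell markers counted above are Cd79a and Igj. Igj had 0 counts in all 3 RBM3KO libraries and 39, 25 and 103 in WT, so it passed the filter through WT alone. Over 15 macrophage, monocyte and dendritic cell markers the sum was 2232 to 2697 CPM in RBM3KO and 2972 to 4197 CPM in WT. Between 94.2% and 99.7% of this came from Cd74, H2-Aa and H2-Ab1, genes of the MHC class II pathway. The other 12 markers summed to 7.89 to 76.4 CPM in RBM3KO and 28.6 to 169 CPM in WT after TMM scaling, with overlap, and of the 9 tested 2 had estimates above 0 and 7 below. Csf1r was at 0 in 2 RBM3KO libraries and 1 WT library. The 12 ILC markers summed to 7619 to 8184 CPM in RBM3KO and 5692 to 6881 CPM in WT. The part of these differences in the values below was not tested, and in sorted bulk cells fewer cells of a type and less RNA per cell cannot be told apart.

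None of the family's members passed the test. Of the 35 members that passed edgeR's filter on low counts, 0 had an adjusted p under 0.05, where 1.24% of all tested genes did (141 of 11381, Rbm3 left out; 0.246% higher and 0.993% lower). At an unadjusted p under 0.05, 3 members passed (8.57%), namely Rbm39 higher and Rbm15b and Rbmxl1 lower, against 12.3% of all tested genes (5.46% higher and 6.86% lower). DESeq2 called 1 of the 35 members, Rbm15b, where it called 413 of the 11381 genes. The estimate was above 0 for 18 members and below 0 for 17, beside 50.9% above 0 over all tested genes. The median log2 fold change was 0.04 in the family and 0.01 over all tested genes, and the median absolute log2 fold change was 0.18 in the family and 0.28 over all tested genes. Summed over the 39 members, the level was 1752 ± 14.8 CPM in RBM3KO and 1768 ± 23.3 CPM in WT (SD, n = 3 each), with overlap. Per total count, without TMM scaling, it was 1721 ± 36.3 CPM in RBM3KO and 1797 ± 26.8 CPM in WT, where the genotypes do not overlap.

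**Figure D1:**
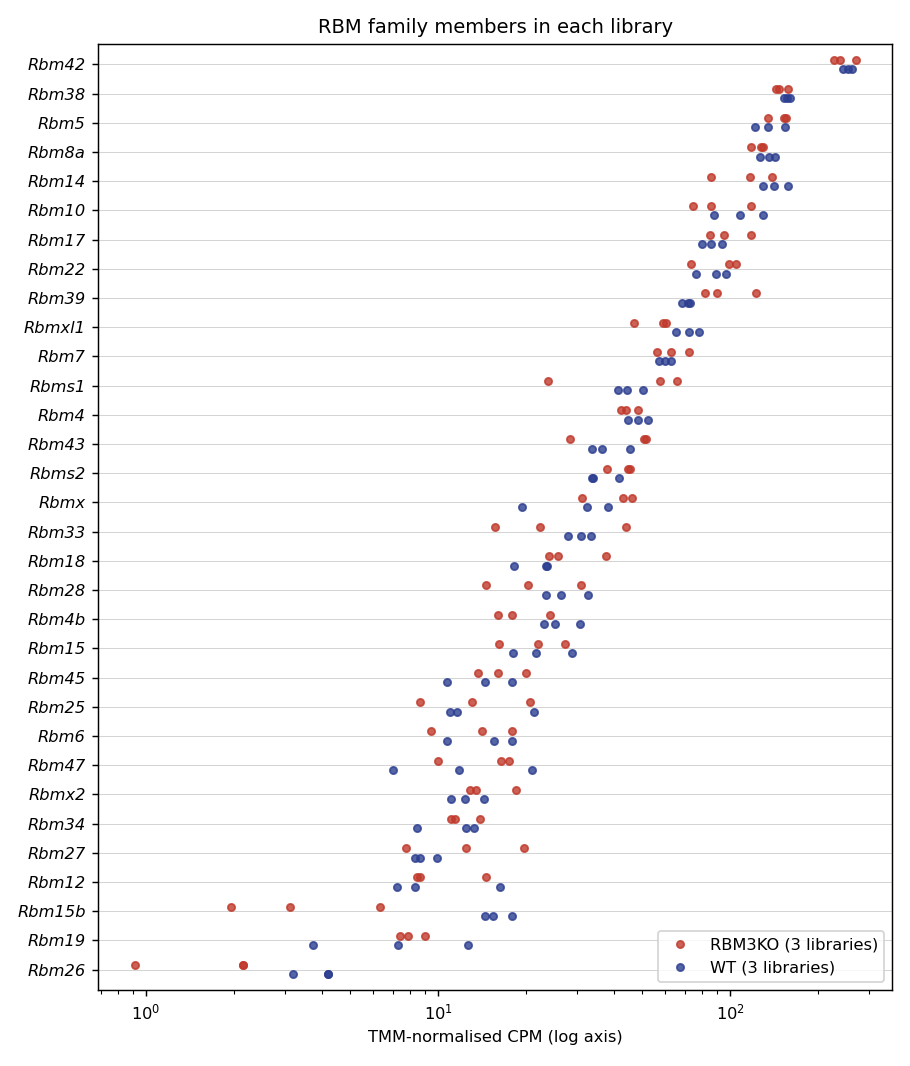
TMM-normalised CPM (log axis) of the 32 tested members at a mean of 1 CPM or more with a count in every library, 1 point per library, RBM3KO drawn above WT in each row. For most members the points of the genotypes mix, while those of Rbm15b (1.96 to 6.33 CPM in RBM3KO and 14.5 to 17.9 CPM in WT) and of Rbm26 stand apart, and those of Rbm39, Rbm18 and Rbmxl1 are separated by narrower gaps.

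For most members at 10 CPM or more the interval left out a 2-fold change. The 95% interval of a log2 fold change stayed within a 2-fold change either way for 23 of the 35 tested members (65.7%, against 48.3% of all tested genes). All 23 are among the 29 members at a mean of 10 CPM or more, whose estimates ran from -0.45 to 0.56. For the other 12 tested members, including all 6 under 10 CPM, the interval reached beyond a 2-fold change in at least 1 direction. That of Rbm15b, from -3.18 to -1.01, lay wholly beyond a 2-fold decrease. The genotypes did not overlap for 5 members (14.3%), Rbm39 and Rbm18 higher in RBM3KO and Rbm15b, Rbm26 and Rbmxl1 lower, where 18.9% of all tested genes were separated in this way (8.43% higher and 10.5% lower). With 3 libraries against 3, the smallest exact permutation p is 0.1, so each test here is that of the model fitted across all genes.

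**Figure D2:**
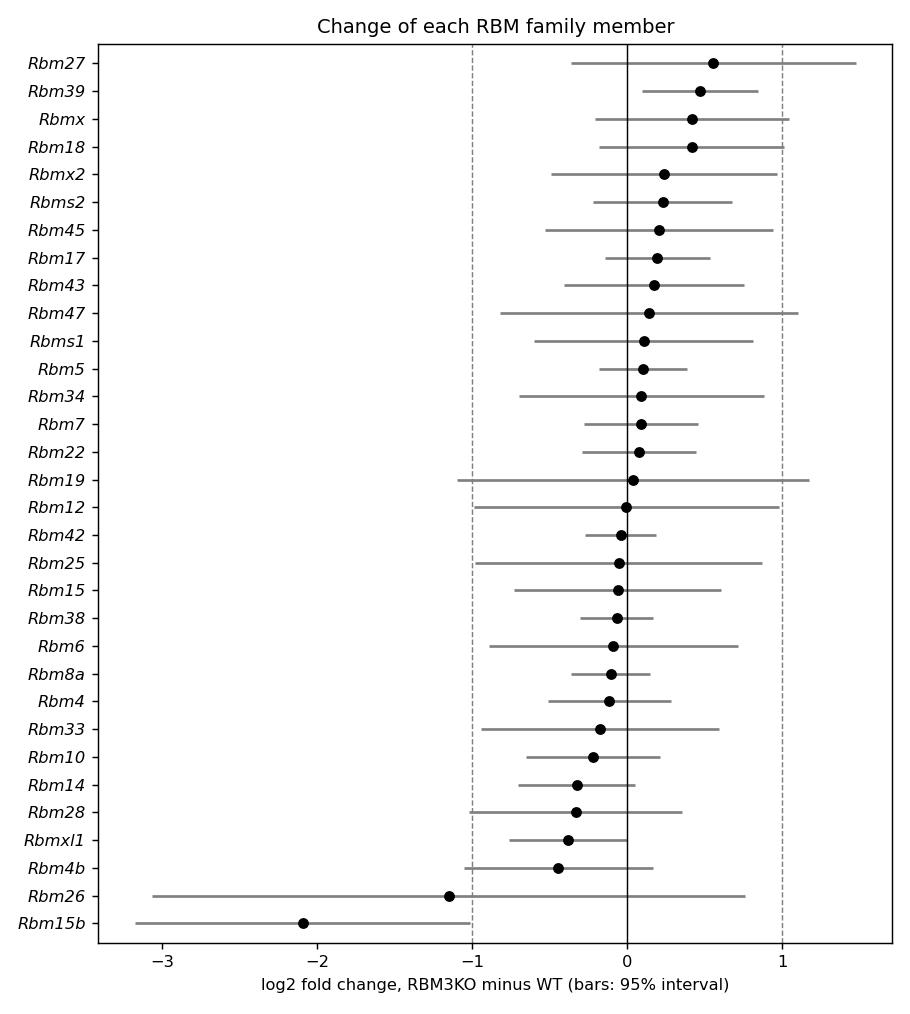
Log2 fold change (RBM3KO minus WT, points) with its 95% interval (bars) for the same 32 members, ordered by size, with dashed lines at a 2-fold change. Rbm15b, at -2.09, has the lowest estimate, Rbm27, at 0.56, the highest, and most intervals cross 0.

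The 6 most abundant members per length of transcript act in splicing, mRNA stability and the exon junction. Rbm42, found with the tri-snRNP of human spliceosomes, led with 139 CPM per kilobase of its longest coding transcript, and its lowest library (127) stood above the highest of the next member, Rbm38 (77.4). Rbm42 had 270.5, 238.4 and 226.7 CPM in RBM3KO, against 243.2, 261.7 and 252.5 CPM in WT. The WT values lie inside the range of the knockout values. The estimate was -0.04 on the log2 scale (SE 0.10, edgeR adjusted p = 0.940), with a 95% interval from -0.27 to 0.19. Rbm42 alone made up between 12.8% and 15.6% of the family's CPM in a library. Most of its transcript is also annotated to another gene, as given at the end. Behind Rbm38, at 73.8 CPM per kilobase, came Rbm17 (58.2), Rbm8a (49.9), Rbm5 (44.4) and Rbm22 (40.7), and from Rbm17 to Rbm22 the library ranges of neighbours overlap. The order of these 6 was the same with the total exonic length of each gene. The cut at 6 is narrow, as Rbm14, a gene of paraspeckles, followed Rbm22 at 40.6 CPM per kilobase. Its library range (27.2 to 49.7) overlaps that of Rbm22 (33.3 to 47.3). Without regard to length, the 6 members of highest CPM were Rbm42, Rbm38, Rbm5, Rbm8a, Rbm14 and Rbm10. They held between 47.3% and 54.6% of the family's CPM.

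Of the factors of the 3' splice site, Rbm39 had the highest estimate. Rbm39, or CAPER alpha, resembles the splice site factor U2AF2 and helps select exons. It had 90.2, 122.4 and 82.1 CPM in RBM3KO, against 68.4, 72.7 and 71.7 CPM in WT. All 3 knockout libraries lie above the 3 wild-type libraries, and RBM3KO replicate 2 is the highest. The estimate was 0.47 on the log2 scale (SE 0.17, 95% interval 0.10 to 0.85), which did not pass (unadjusted p = 0.0181, edgeR adjusted p = 0.265). Without RBM3KO replicate 2 it was 0.28 (adjusted p = 0.524). Rbm17, or SPF45, which recognises the 3' splice site, had 85.4, 95.2 and 117.6 CPM in RBM3KO, against 93.9, 80.4 and 85.8 CPM in WT. Its groups overlap, with RBM3KO replicate 3 the highest (log2 fold change 0.20, SE 0.15, edgeR adjusted p = 0.702).

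Rbm5, Rbm6 and Rbm10 are related regulators of alternative exons, including exons of cell death genes. Rbm5 had 134.3, 152.8 and 155.6 CPM in RBM3KO, against 135.3, 121.4 and 154.6 CPM in WT. Its paralog Rbm10 had 118.1, 85.8 and 74.8 CPM in RBM3KO, against 129.8, 107.9 and 88.0 CPM in WT. Both overlap between genotypes, with log2 fold changes of 0.11 (Rbm5, SE 0.13) and -0.22 (Rbm10, SE 0.20) and edgeR adjusted p of 0.850 and 0.756. Rbm6, which lies 2562 bases from Rbm5 on chromosome 9 (mm10), had 13.8 ± 4.24 CPM in RBM3KO and 14.7 ± 3.65 CPM in WT. Per kilobase of transcript its mean level was 3.84 CPM, against 44.4 CPM for Rbm5.

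Subunits of the spliceosome itself did not pass the test. Rbm22, the relative of yeast Cwc2 that touches U6 snRNA in the activated spliceosome, had 98.8, 104.5 and 73.5 CPM in RBM3KO, against 97.1, 76.5 and 89.4 CPM in WT. The lowest and the highest library are both RBM3KO, and the estimate was 0.08 on the log2 scale (SE 0.17, edgeR adjusted p = 0.931). Rbmx2, the relative of a subunit of the yeast retention and splicing complex, averaged 14.9 ± 3.08 CPM in RBM3KO and 12.6 ± 1.69 CPM in WT. Rbm25, which regulates splicing of apoptosis genes, averaged 14.1 ± 6.06 CPM in RBM3KO and 14.7 ± 5.83 CPM in WT. Neither passed (edgeR adjusted p of 0.873 and 0.984). Rbm41, a relative of a minor spliceosome protein, did not pass the filter, with 0, 22 and 5 counts in RBM3KO and 6, 6 and 0 counts in WT.

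Rbm15b, the gene of an m6A adaptor, had the lowest estimate of the tested members at a mean of 1 CPM or more. RBM15 and RBM15B carry the m6A methyltransferase to its target RNAs, among them the Xist transcript. Rbm15b had 1.96, 3.11 and 6.33 CPM in RBM3KO, against 14.5, 17.9 and 15.4 CPM in WT. In raw counts these are 30, 52 and 47 in RBM3KO and 196, 305 and 393 in WT. Every knockout library lies below every wild-type library, with RBM3KO replicate 3 nearest to WT. The estimate was -2.09 on the log2 scale (SE 0.49, 95% interval -3.18 to -1.01), a 4.27-fold lower level, and it missed the threshold (unadjusted p = 0.00141, edgeR adjusted p = 0.0781). DESeq2 called Rbm15b lower (adjusted p = 0.00491), as did edgeR on genes at 10 CPM or more in 3 libraries (adjusted p = 0.0370), a filter that Rbm15b passed through WT alone. Without RBM3KO replicate 3 the log2 fold change was -2.65 (adjusted p = 0.0401), and over all 15 alternatives the adjusted p ran from 0.00491 to 0.256. The sums of cell cycle genes, of B and plasma cell markers and of the list led by Cd74, H2-Aa and H2-Ab1 were lower in the same RBM3KO libraries, and their part in this value was not tested.

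Rbm15b lies on chromosome 9 from 106880918 to 106887428 (mm10, minus strand) and is the only member annotated with a single exon. It shares 14 exonic bases with Manf, on the same strand, and 75 with Dcaf1, on the opposite strand. Manf had 150.1 ± 11.9 CPM in RBM3KO and 163 ± 15.96 CPM in WT (SD, n = 3 each). Dcaf1, listed as Vprbp, had 17.5 ± 0.71 CPM in RBM3KO and 12.6 ± 1.29 CPM in WT. Neither neighbour passed the test (edgeR adjusted p of 0.797 and 0.610). Rbm15, its paralog on chromosome 3, had 22.0, 27.1 and 16.2 CPM in RBM3KO, against 21.6, 18.0 and 28.7 CPM in WT. The genotypes overlap, and the estimate was -0.06 on the log2 scale (SE 0.30, 95% interval -0.73 to 0.61, edgeR adjusted p = 0.974). As a share of the 2 paralogs' CPM, Rbm15b made up 15.5 ± 10.9% in RBM3KO and 41.7 ± 7.61% in WT. The difference between the paralogs' responses was not tested.

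Of 14 genes for m6A writers, erasers and readers, 0 passed edgeR's test (1 higher and 1 lower at an unadjusted p under 0.05), with a median log2 fold change of 0.05. DESeq2 called Ythdf1. Mettl3, the catalytic subunit, had 31.9 ± 6.48 CPM in RBM3KO and 32.2 ± 1.69 CPM in WT. Wtap, which anchors the complex, had 77.5 ± 15.1 CPM in RBM3KO and 84.5 ± 8.77 CPM in WT. Zc3h13, which links the adaptors to the writer complex, had 18.9, 16.4 and 29.9 CPM in RBM3KO, against 9.83, 7.05 and 12.02 CPM in WT. Its genotypes did not overlap, and the log2 fold change of 1.16 (SE 0.36) did not pass (edgeR adjusted p = 0.190). The reader gene Ythdf1 had 6.33, 24.1 and 26.1 CPM in RBM3KO, against 44.9, 35.6 and 68.8 CPM in WT (log2 fold change -1.41, SE 0.46, edgeR adjusted p = 0.205). Zc3h13 and Ythdf1 were named after their values were seen. The erasers Alkbh5 (94.3 ± 11.6 CPM in RBM3KO and 99.8 ± 10.4 CPM in WT) and Fto (91.0 ± 12.4 CPM in RBM3KO and 82.7 ± 23.2 CPM in WT) had the highest CPM of the list.

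**Figure D3:**
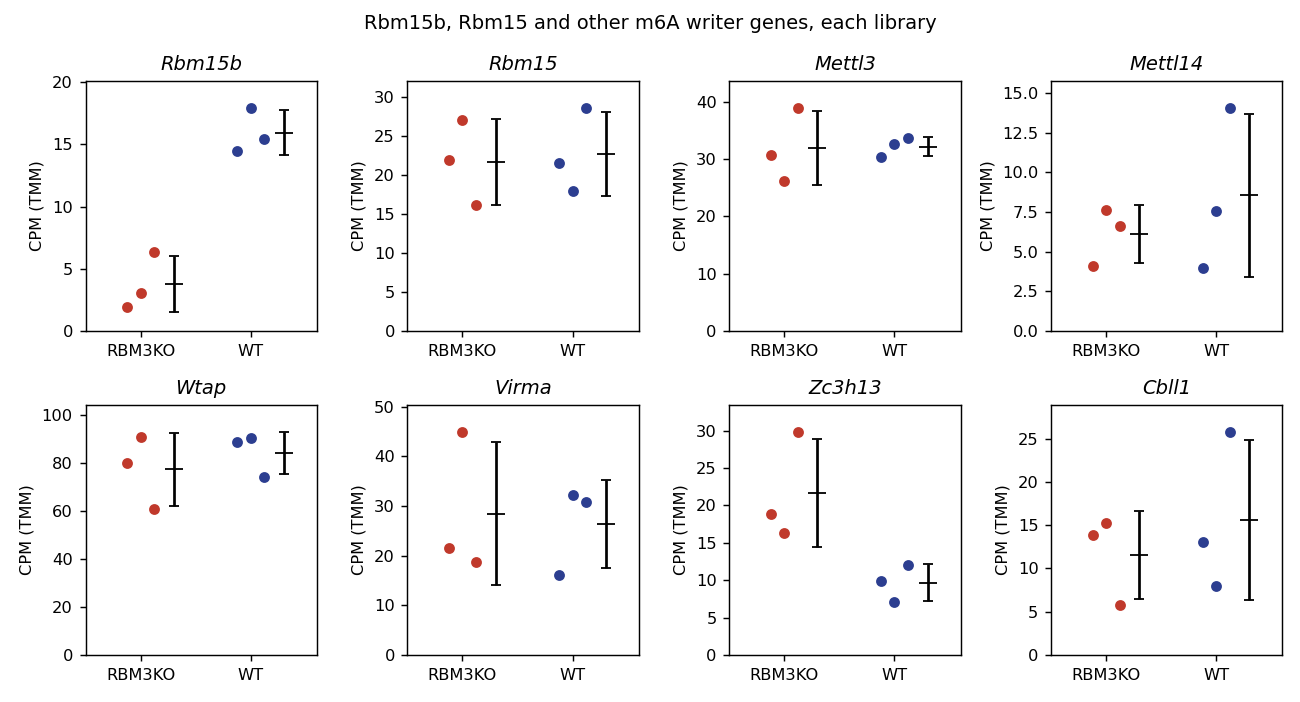
TMM-normalised CPM of Rbm15b, Rbm15 and 6 m6A writer genes in each library (points), with mean ± SD beside them (n = 3 each), RBM3KO left of WT and each axis starting at 0. Rbm15b is lower and Zc3h13 higher in every RBM3KO library than in any WT library, while the points of the other genes overlap.

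Rbm14, a coactivator found in paraspeckles, had 139, 86.0 and 117.1 CPM in RBM3KO, against 141.5, 129.4 and 157.3 CPM in WT. RBM3KO replicate 2 is the lowest, and only RBM3KO replicate 1 lies within the WT range. The estimate was -0.32 on the log2 scale (SE 0.17, 95% interval -0.70 to 0.05, edgeR adjusted p = 0.495). Rbm33, described as a partner of the m6A eraser ALKBH5 in human cells, had 15.7, 22.3 and 44.0 CPM in RBM3KO, against 27.8, 30.9 and 33.4 CPM in WT. The knockout libraries spread on both sides of the wild-type ones. Of 12 paraspeckle genes 1 fell and 11 did not pass, with a median log2 fold change of -0.17. The one that fell was Sfpq, which encodes a core paraspeckle protein and splicing factor, with 24.9, 28.0 and 47.8 CPM in RBM3KO, against 75.2, 81.8 and 86.0 CPM in WT (log2 fold change -1.28, SE 0.25, edgeR adjusted p = 0.0388). Sfpq was no longer called without RBM3KO replicate 1, RBM3KO replicate 2 or any 1 of the 3 WT libraries.

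Members of the exon junction complex and of nuclear decay did not pass the test. Rbm8a, or Y14, sits with Magoh on spliced mRNA. It had 128, 129.6 and 118 CPM in RBM3KO, against 126.5, 136.0 and 142.2 CPM in WT. Values of both genotypes lie within a narrow band (log2 fold change -0.11, SE 0.12, 95% interval -0.36 to 0.15, edgeR adjusted p = 0.821). Of 18 exon junction and nonsense-mediated decay genes 0 passed edgeR's test (1 lower at an unadjusted p under 0.05), with a median log2 fold change of -0.03. Eif4a3, the RNA helicase that clamps the complex on RNA, had 331.5 ± 26 CPM in RBM3KO and 353.6 ± 29.9 CPM in WT. Rnps1, a peripheral subunit, had 134.2 ± 2.63 CPM in RBM3KO and 144.5 ± 11.4 CPM in WT.

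Rbm7 delivers short-lived nuclear RNA to the exosome as part of the NEXT complex. It had 62.6, 56.3 and 72.4 CPM in RBM3KO, against 62.9, 59.96 and 56.9 CPM in WT, with overlap (log2 fold change 0.09, SE 0.17, edgeR adjusted p = 0.915). Rbm26 and Rbm27 are paralogs linked to the polyA tail exosome targeting of human cells. Rbm26 had 0.913, 2.15 and 2.15 CPM in RBM3KO, against 4.21, 3.17 and 4.19 CPM in WT. Its genotypes are apart, but it rests on 14, 36 and 16 counts in RBM3KO and 57, 54 and 107 counts in WT, and the interval from -3.06 to 0.76 holds 0 (log2 fold change -1.15, SE 0.87, edgeR adjusted p = 0.687). Rbm27 had 7.76, 12.5 and 19.7 CPM in RBM3KO, against 8.35, 8.70 and 9.91 CPM in WT. RBM3KO replicate 1 lies below all 3 WT libraries and the other knockout libraries above them (log2 fold change 0.56, SE 0.42, edgeR adjusted p = 0.684). Rbm26 made up 11.7 ± 2.62% of the pair's CPM in RBM3KO and 30 ± 3.41% in WT, a pair chosen after its values were seen and not tested. Of 19 genes for the exosome and its targeting complexes 0 passed edgeR's test (1 lower at an unadjusted p under 0.05), with a median log2 fold change of -0.15. Those of highest CPM were Exosc8, a ring subunit (119 ± 6.59 CPM in RBM3KO and 140.9 ± 5.599 CPM in WT), and Ncbp1, the large cap-binding subunit (108.6 ± 3.49 CPM in RBM3KO and 94.98 ± 7.73 CPM in WT).

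Rbm38 had the lowest spread over libraries of the tested members. It is a target of p53 that binds and stabilises mRNAs such as that of the cell cycle inhibitor Cdkn1a. It had 157.8, 147.1 and 143.1 CPM in RBM3KO, against 160.4, 156.5 and 152.5 CPM in WT, a coefficient of variation of 4.37% over the 6 libraries. The genotypes overlap, and the estimate was -0.07 on the log2 scale (SE 0.11, 95% interval -0.30 to 0.17, edgeR adjusted p = 0.895). Cdkn1a itself averaged 509.9 ± 19.7 CPM in RBM3KO and 432.4 ± 75.5 CPM in WT (edgeR adjusted p = 0.470). Of 14 tested p53 pathway genes 0 passed edgeR's test (0 at an unadjusted p under 0.05), with a median log2 fold change of 0.29. Btg2, an antiproliferative p53 target, had the highest CPM, at 904.8 ± 71.0 CPM in RBM3KO and 820.2 ± 97.5 CPM in WT.

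Rbm47, the cofactor of the C-to-U editing enzyme APOBEC1, did not pass the test. It had 17.5, 16.4 and 9.96 CPM in RBM3KO, against 7.02, 11.8 and 20.95 CPM in WT (log2 fold change 0.14, SE 0.44, edgeR adjusted p = 0.952). The highest and the lowest library are both WT. Of 4 tested genes of C-to-U editing 0 passed edgeR's test (1 lower at an unadjusted p under 0.05), with a median log2 fold change of 0.16. Those of highest CPM were Celf2 (57.0 ± 9.93 CPM in RBM3KO and 45.7 ± 2.21 CPM in WT) and Syncrip (36.1 ± 2.28 CPM in RBM3KO and 33.5 ± 2.599 CPM in WT), both RNA-binding proteins. Apobec1 itself had 5.30 ± 2.25 CPM in RBM3KO and 4.64 ± 3.68 CPM in WT. The 1 lower gene of this list was Khsrp, named after its values were seen. It had 13.4, 20.1 and 18.6 CPM in RBM3KO, against 37.4, 29.2 and 39.55 CPM in WT, without overlap. DESeq2 called Khsrp lower, while edgeR put it at -1.03 on the log2 scale (SE 0.26) with an adjusted p of 0.110.

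The single-strand binding group, first described through the Myc gene, had 2 members that passed the filter. Rbms1 had 23.7, 65.7 and 57.3 CPM in RBM3KO, against 44.3, 50.5 and 41.3 CPM in WT. RBM3KO replicate 1 is the lowest of the 6 libraries and the other knockout libraries are the highest (log2 fold change 0.11, SE 0.32, edgeR adjusted p = 0.950). Rbms2 averaged 42.7 ± 4.06 CPM in RBM3KO and 36.4 ± 4.45 CPM in WT (log2 fold change 0.23, SE 0.20, edgeR adjusted p = 0.757). Rbms3 had a single count, in RBM3KO replicate 2.

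Rbm28 and Rbm19, relatives of the yeast ribosome biogenesis factors Nop4 and Mrd1, did not pass. Rbm28 had 14.6, 20.3 and 30.8 CPM in RBM3KO, against 23.4, 26.3 and 32.5 CPM in WT. Its genotypes overlap, and RBM3KO replicate 1 is the lowest (log2 fold change -0.33, SE 0.31, edgeR adjusted p = 0.781). Rbm19 averaged 8.10 ± 0.82 CPM in RBM3KO and 7.91 ± 4.52 CPM in WT, and Rbm34 12.2 ± 1.58 CPM in RBM3KO and 11.4 ± 2.54 CPM in WT. Of 23 rRNA processing genes 0 passed edgeR's test (2 lower at an unadjusted p under 0.05), with a median log2 fold change of -0.21. Nop56, a core protein of box C/D particles, had 139.2 ± 13.3 CPM in RBM3KO and 160.8 ± 16.5 CPM in WT. Noc4l, a factor of the small subunit, had 120.3 ± 18.0 CPM in RBM3KO and 130.6 ± 13.1 CPM in WT.

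Several members known from other tissues had few counts. Rbm24, which acts in muscle, had 18 counts in RBM3KO replicate 1 and 0 in the other libraries. Rbm44, described in germ cells, had 47 counts in RBM3KO replicate 2, 4 in WT replicate 2 and 0 elsewhere. Rbm11, described in brain and testis, had 92, 0 and 6 counts in RBM3KO and 10, 1 and 0 counts in WT, so its log2 fold change of 3.12 (SE 2.07, edgeR adjusted p = 0.626) draws most of its counts from RBM3KO replicate 1. Rbm20, the splicing factor of titin in heart muscle, had 0, 32 and 0 counts in RBM3KO and 11, 19 and 0 counts in WT. A count of 0 allows up to 3 counts, between 0.12 and 0.40 CPM of the total in these libraries, for counting error only. Rbm45, described in neurons, was detected throughout, at 16.6 ± 3.18 CPM in RBM3KO and 14.4 ± 3.57 CPM in WT.

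Members with no place in these groups did not pass either. Rbm43 had 28.2, 51.7 and 50.7 CPM in RBM3KO, against 33.7, 45.4 and 36.5 CPM in WT, with overlap (log2 fold change 0.17, SE 0.26, edgeR adjusted p = 0.888). Rbm18 had 23.9, 25.7 and 37.7 CPM in RBM3KO, against 23.6, 23.45 and 18.2 CPM in WT. Its genotypes are separated by a narrow gap, and the log2 fold change of 0.42 (SE 0.27) did not pass (edgeR adjusted p = 0.615). Rbm12 averaged 10.6 ± 3.50 CPM in RBM3KO and 10.6 ± 4.94 CPM in WT. Rbm12b had 6, 1 and 5 counts in RBM3KO and 28, 0 and 68 counts in WT.

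Partners of the splicing members did not pass edgeR's test. Of 21 tested genes of U2 snRNP and 3' splice site recognition 0 passed (1 higher and 2 lower at an unadjusted p under 0.05), with a median log2 fold change of -0.12. Puf60, a partner of U2AF, had 407.1 ± 14.8 CPM in RBM3KO and 420.6 ± 16.3 CPM in WT, and Sf3b2, a subunit of SF3B, had 269.8 ± 24.6 CPM in RBM3KO and 300.4 ± 15.2 CPM in WT. Of 19 genes of the Prp19 complex and activated spliceosome 0 passed (1 lower at an unadjusted p under 0.05), with a median log2 fold change of -0.09. Ppil1, a spliceosomal prolyl isomerase, came closest, with 143.3, 111.8 and 114.5 CPM in RBM3KO, against 199.4, 186.7 and 175.2 CPM in WT (log2 fold change -0.60, SE 0.13, edgeR adjusted p = 0.0554). Ppil1 was called by DESeq2, by limma-voom, and by edgeR with the replicate block, without RBM3KO replicate 1, and under both other filters on low counts. Of the other lists, DESeq2 called Khsrp, Sfpq and Ythdf1. Xab2 had 182.1 ± 20.5 CPM in RBM3KO and 163.8 ± 14.1 CPM in WT. Of 13 tested genes on the minor spliceosome list 0 passed (0 at an unadjusted p under 0.05), with a median log2 fold change of 0.01. Snrnp25 had 117.4 ± 18.6 CPM in RBM3KO and 129.3 ± 7.15 CPM in WT, and Zmat5 80.9 ± 6.05 CPM in RBM3KO and 79.6 ± 6.36 CPM in WT. That list also holds Dhx8 and Tcta, which are not particular to the minor spliceosome.

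Some members have near copies, which bears on how their reads are assigned. Rbmx encodes hnRNP G, a splicing regulator, and Rbmxl1 is its retrocopy on chromosome 8. Over the coding sequence they match at 90.9% of 1167 aligned bases, with identical stretches of up to 67 bases. Rbm4 and Rbm4b, mammalian relatives of the fly clock protein Lark, lie 17227 bases apart on chromosome 19 and match at 86.6% of 1073 aligned bases, with an identical stretch of 425 bases. The first 90 coding bases are shown for each pair, 5′ to 3′ from the start codon, in lower case with the bases that differ within the pair in capitals, from the GENCODE M21 transcripts (mm10). Rbmx and Rbmxl1 differ at 6 of these bases and Rbm4 and Rbm4b at 0, so a read from within the Rbm4 stretch cannot name its gene.
Rbmx: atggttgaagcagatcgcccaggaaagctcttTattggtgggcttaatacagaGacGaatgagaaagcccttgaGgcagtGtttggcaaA
Rbmxl1: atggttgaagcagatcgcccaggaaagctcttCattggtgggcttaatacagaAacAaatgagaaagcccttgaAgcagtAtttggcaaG
Rbm4: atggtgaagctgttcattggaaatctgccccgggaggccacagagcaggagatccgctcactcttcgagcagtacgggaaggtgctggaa
Rbm4b: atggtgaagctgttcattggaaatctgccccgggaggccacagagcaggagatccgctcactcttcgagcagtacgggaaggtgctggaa

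The estimates of Rbmx and Rbmxl1 had opposite signs. Rbmx had 42.9, 31.1 and 46.0 CPM in RBM3KO, against 32.3, 38.1 and 19.4 CPM in WT, with overlap (log2 fold change 0.42, SE 0.28, edgeR adjusted p = 0.637). Rbmxl1 had 46.8, 58.9 and 60.3 CPM in RBM3KO, against 78.3, 72.5 and 65.4 CPM in WT. All 3 RBM3KO values of Rbmxl1 lie below the WT values (log2 fold change -0.38, SE 0.17, unadjusted p = 0.0492, edgeR adjusted p = 0.404). Their sum was 95.4 ± 9.49 CPM in RBM3KO and 102 ± 14.9 CPM in WT. Of that sum, Rbmx made up 41.9 ± 6.76% in RBM3KO and 28.8 ± 5.76% in WT, and this difference was not tested.

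The paralogs Rbm4 and Rbm4b both had estimates below 0. Rbm4 had 44.0, 42.2 and 48.3 CPM in RBM3KO, against 44.9, 48.3 and 52.2 CPM in WT (log2 fold change -0.11, SE 0.18, edgeR adjusted p = 0.894). Rbm4b averaged 19.4 ± 4.30 CPM in RBM3KO and 26.3 ± 3.97 CPM in WT (log2 fold change -0.45, SE 0.28, edgeR adjusted p = 0.593). Their sum was 64.2 ± 7.46 CPM in RBM3KO and 74.8 ± 7.08 CPM in WT.

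**Figure D4:**
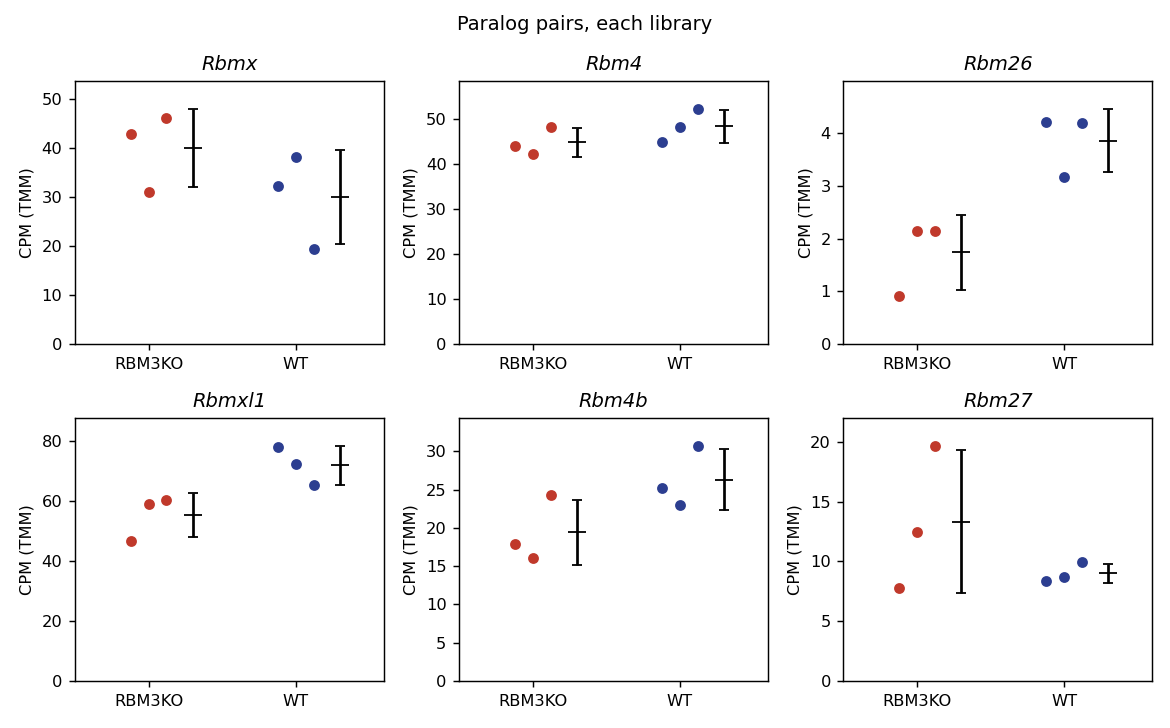
TMM-normalised CPM of 3 paralog pairs in each library (points) with mean ± SD beside them (n = 3 each), RBM3KO left of WT, 1 pair per column and each axis starting at 0. Rbmxl1 and Rbm26 are lower in every RBM3KO library than in any WT library, and the other 4 genes overlap.

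How far a member's reads are its own was gauged by the share of its 50-base stretches that occur in the annotated transcripts of another gene. The share was 0 for 14 members and above 50% for 5, namely Rbm42 (92.3%), Rbmxl1 (79%), Rbm12b (63.1%), Rbm4 (57.5%) and Rbm4b (50.5%). Rbm42 shares its stretches with Gm21982 and Rbm4 with Gm21992, both annotated over the same locus, Rbm12b with its neighbour Rbm12b2, and Rbmxl1 with the copies Gm7324 and Gm7192. Rbmx shared 1.46% and Rbm15b 0.402%. Rbm39 shared 0.109%, with Gm15575. Below 50%, Rbm10 shared 44% (33.9% with Gm12799) and Rbm12 32.4% (30.6% with Gm28036). The sources used here do not give the authors' annotation or their handling of such reads. Levels of the 5 members above 50% are therefore uncertain, and in part those of Rbm10 and Rbm12 as well.

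**Figure D5:**
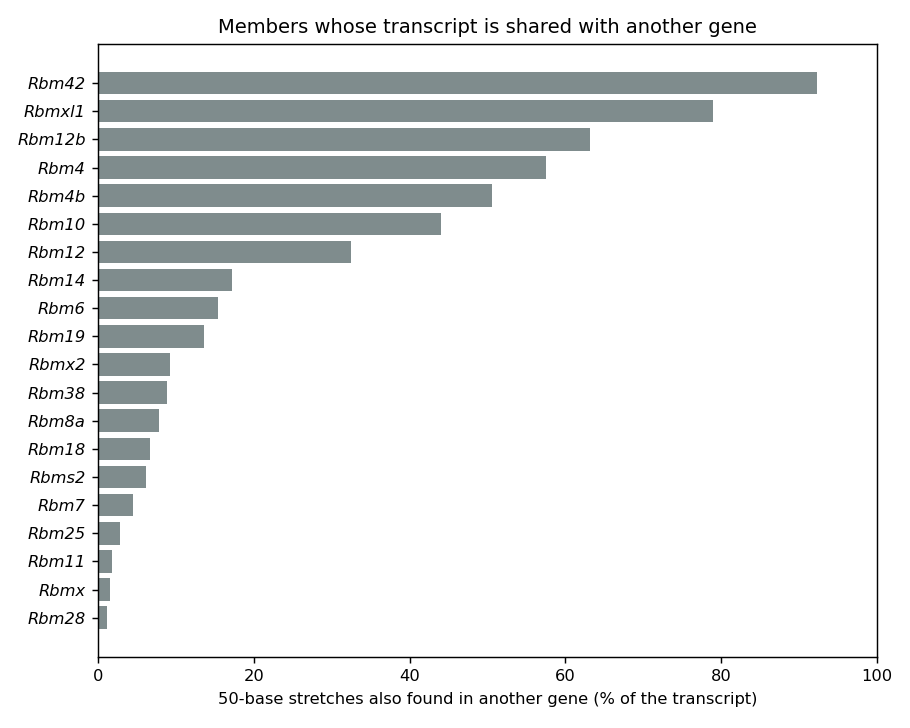
Share of the 50-base stretches of each member's longest coding transcript that also occur in another annotated gene (percent, bars from 0), for members above 1%. Rbm42 at 92.3% and Rbmxl1 at 79% have the highest shares.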

How the data were processed

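Reads per gene symbol, as raw counts, make up the 1 table the authors deposited, with 1 column per sample and 0 columns of other samples. Tools named in the submitters' processing notes are featureCounts 1.6.5, STAR 2.6.1c and Bowtie 1.0.0, with the build mm10 and no role or order. The sources used here do not give annotation, strand setting or filters. Smart-seq2 with Nextera XT keeps no strand, so reads of overlapping genes are not separable. Whether PCR duplicates were removed before counting is not given either. No 2 libraries were identical.

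Genes were filtered with filterByExpr (11382 of 14416 left, 99.9% of counts), scaled by TMM and compared by the robust quasi-likelihood test of edgeR 4.0.16 (R 4.3.3), with no covariate and with Benjamini-Hochberg adjustment over all tested genes and a threshold of 0.05. The SE is the size of the log2 fold change divided by the square root of F, and 95% intervals use the test's degrees of freedom. Alternatives were DESeq2 1.42.0, RLE scaling, limma-voom (limma 3.58.1), a non-robust fit, other filters, a replicate block, a GC content offset, equal depth and leaving out each library. The code was tested on simulated data.

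Of the symbols, 98.8% matched GENCODE M21 (mm10), by current or older name, and 178 did not. Lengths are those of each gene's basic transcript of longest coding length.

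The family and the gene lists were chosen with earlier results of these data known, and paralog pairs after their values were seen. Values per library are given for members under an unadjusted p of 0.05, the 6 highest per length, the 3 with the largest change at 1 CPM or more, and the most abundant of each role. Of each list, members past the threshold are named or, with none, the 2 of highest CPM. Proteins were not analysed here. The value of 1 marker gene is not reported here.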

Additional observations from a re-analysis of the deposited data

How the results depend on the processing

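Of the 39 members, 29 were tested at 10 CPM or more in 3 libraries, 32 at equal depth, 39 with no filter and 35 or 36 in the other alternatives. DESeq2 called 413 genes against 141, 1 member (Rbm15b) against 0 and 4 partner genes against 1. At 10 CPM or more in 3 libraries, 211 genes beside Rbm3 were called of 7699 tested. Among them were 1 of the 29 members (Rbm15b) and 2 partner genes. No filter, limma-voom and the replicate block likewise gave 2 partner genes each (Sfpq and Ppil1). Leaving out 1 library at a time gave 11 to 98 genes, 0 to 1 members and 0 to 1 partner genes (Ppil1 without RBM3KO replicate 1, Sfpq without RBM3KO replicate 3), with 77 and 40 genes where RBM3KO replicate 1 or 2 was absent, and 11, 52 and 66 genes where WT replicate 1, 2 or 3 was absent. These fits have fewer samples. Rbm3 was called in every fit.

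The replicate block gave 148 genes and 0 members, and among members and partner genes its only changed call was Ppil1. Same-numbered samples of the genotypes deviated together with correlations of 0.056, 0.057 and 0.005, and 4 of 6 samples correlated best with their own number. The numbers were not treated as pairs in the main fit because nothing in the labels says that they pair animals.

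Members with estimates near 0 changed sign in some fits, with no call in either direction, and the cause was not tested. Rbm12 (-0.004) stood at 0.001 with DESeq2, RLE scaling and limma-voom and at 0.048 with the block. Rbm20 was -0.147 with limma-voom and -1.603 with the block. Rbms1 was -0.049 and -0.004 in the same fits. With the GC offset Rbm38 was 0.049 and Rbm42 0.081, and at equal depth Rbm19 was -0.037. Leaving out 1 library gave -0.308 to 0.446 for Rbm12, -0.25 to 0.14 for Rbm15, -0.307 to 0.556 for Rbm19, -6.356 to 0.694 for Rbm20, -0.022 to 0.214 for Rbm22, -0.437 to 0.323 for Rbm25 and -0.689 to 0.102 for Rbm33. It gave -0.08 to 0.212 for Rbm34, -0.119 to 0.011 for Rbm42, -0.161 to 0.635 for Rbm47, -0.316 to 0.119 for Rbm6, -0.011 to 0.172 for Rbm7 and -0.169 to 0.44 for Rbms1. RLE scaling and DESeq2 moved the median of all genes by 0.006.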

Other observations

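Matching older symbols adds 2 genes of the family that the symbol rule does not take. Rbm48, listed as C030048B08Rik and linked to the minor spliceosome, had 8.28, 7.82 and 9.29 CPM in RBM3KO, against 3.55, 5.58 and 9.09 CPM in WT (log2 fold change 0.47, SE 0.50, edgeR adjusted p = 0.808). WT replicate 3 lies within the range of the knockout libraries. Rbm12b2, listed as C430048L16Rik, had 40, 1 and 20 counts in RBM3KO and 30, 9 and 68 counts in WT, and did not pass (edgeR adjusted p = 0.998). The count of members called is then 0 of 37 tested.

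The nuclear RNA Malat1, picked with its value in view, had 443, 327 and 731.1 CPM in RBM3KO, against 260, 206.4 and 301.9 CPM in WT (edgeR adjusted p = 0.109). Members lie on 17 chromosomes, 8 of them on chromosome 2 and 4 on X. Across the 35 tested members the Spearman correlation of the log2 fold change with transcript GC content was -0.29, and across 11275 tested genes it was -0.06. Genes of 1 set of libraries are not independent replicates, and these values are a description.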
